A study of Mus musculus with 12 samples.

Results

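The genes described here are 38 genes of the extracellular matrix other than collagens, of collagen processing and of mesenchymal cells, measured by RNA sequencing in bone marrow-derived macrophages (BMDMs), wild-type or Nlrp3-/-. They are 38 of the 55335 genes in the table. The rule was a list of gene symbols. The genes had been selected on earlier results in these same libraries, in which matrix genes were higher in Nlrp3-/- than in wild-type BMDMs. The differences between genotypes are therefore given as a description, and no p-value is read from them. The question was whether the genes moved together across the groups, as a share of stromal cells might make them do. Such a share was not itself tested.

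BMDMs arise when mouse marrow is cultured with the growth factor M-CSF. The 12 libraries form 4 groups of 3, since each genotype was measured as a control and with LPS+ATP. Controls were left without treatment. Lipopolysaccharide (LPS) primes macrophages and ATP then triggers the NLRP3 inflammasome. The labels give LPS for 4 hours followed by ATP for 30 minutes, whereas the methods of the study give 12 hours and 2 hours with 3 mM ATP. According to the methods, marrow came from 8-week-old C57BL/6 mice and was kept with M-CSF (40 ng/ml) for 7 days. Nlrp3 was deleted in the whole animal, so that every cell of a Nlrp3-/- culture carried the deletion. The methods mention no sort of the cultures, and the labels do not say whether the 3 replicates of a group came from separate mice or cultures. The p-values below therefore measure only the spread between these libraries, which may be technical.

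The extracellular matrix is a network of collagens, glycoproteins and proteoglycans that fibroblasts, smooth muscle cells and other mesenchymal cells secrete around themselves. Glycoproteins such as fibronectin and the fibrillins link cells to fibrils, small leucine-rich proteoglycans coat collagen fibrils, and laminins and nidogen build basement membranes. Before and after secretion, collagen chains are hydroxylated, folded, trimmed and crosslinked by a set of dedicated enzymes and chaperones. Macrophages in culture are not a main source of most of these proteins, although they make some of them, such as fibronectin and thrombospondin.

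Of the 38 genes, 22 had an entry in a table of RefSeq promoters on GRCm38.p6, with 27 windows in all, and 16 had none. The submitters' processing notes name GRCm39, so these windows serve only to show sequence. The 250 bases before the start are printed for 3 genes that differed in the response to LPS+ATP described below: Tnc, which rose in both genotypes, Thbs2, which fell in wild-type BMDMs, and Sparc, which was called in neither. Capitals mark the searched letters where they occurred on either strand. These were TATAAA (the core promoter box of that name), GGGCGG (Sp1), CAGACA (SMAD), GGAATG (TEAD) and TGANTCA (AP-1), and the CArG box of serum response factor.
Tnc (chr4:64047016-64047265, minus strand): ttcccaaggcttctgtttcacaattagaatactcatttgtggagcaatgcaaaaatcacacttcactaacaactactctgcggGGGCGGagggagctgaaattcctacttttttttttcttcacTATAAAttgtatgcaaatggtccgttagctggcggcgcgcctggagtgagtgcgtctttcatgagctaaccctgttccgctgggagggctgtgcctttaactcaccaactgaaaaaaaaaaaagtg
Thbs2 (chr17:14694263-14694512, minus strand): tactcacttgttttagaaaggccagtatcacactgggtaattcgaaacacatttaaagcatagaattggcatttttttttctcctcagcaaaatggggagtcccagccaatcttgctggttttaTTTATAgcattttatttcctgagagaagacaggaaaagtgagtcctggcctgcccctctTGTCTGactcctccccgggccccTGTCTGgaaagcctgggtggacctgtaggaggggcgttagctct
Sparc (chr11:55420081-55420330, minus strand): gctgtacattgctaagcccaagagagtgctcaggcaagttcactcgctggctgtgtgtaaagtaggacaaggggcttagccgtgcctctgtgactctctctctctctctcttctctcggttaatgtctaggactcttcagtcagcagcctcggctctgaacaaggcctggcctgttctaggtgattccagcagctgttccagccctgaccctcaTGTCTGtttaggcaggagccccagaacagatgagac
The Tnc window held TATAAA and GGGCGG. The Thbs2 window held TTTATA, which is TATAAA on the other strand, and TGTCTG at 2 places, which is CAGACA on the other strand. The Sparc window held TGTCTG once. Over the 27 windows of the listed genes, GGGCGG was in 59.3%, against 32.7% of all 32851 windows, and CAGACA was in 29.6% against 17.1%. TATAAA was in 18.5% against 12.4%, and GGAATG in 14.8% against 12.6%. TGANTCA and the CArG box were in 0 of the 27 windows, against 6.75% and 1.47% of all windows. No motif was in all 27 windows.

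The deposited values are FPKM, fragment counts scaled to the length of the gene and the size of the library, so the depth in reads is unknown. FPKM summed to between 283278 and 299393 per library, 21122 to 22613 genes were above 0, and relative depths, estimated from the spacing of low values, differed by up to 1.22 times. Nlrp3 was between 9.24 and 33.6 FPKM in the wild-type libraries and at 0 in all Nlrp3-/- libraries, as labelled. The genotypes also differed in other ways. Xist was between 32.8 and 56.3 FPKM in Nlrp3-/- and at most 0.0416 in wild-type libraries, and the Y-linked Ddx3y, Eif2s3y, Kdm5d and Uty were at 0 in every Nlrp3-/- library and at least 0.903 in every wild-type library. Nnt, a gene that some C57BL/6 substrains lack in part, had 4.09 to 10.3 FPKM in the wild-type libraries and 0.67 to 1.47 in those of Nlrp3-/- BMDMs. The deletion, the sex of the donors and the strain background cannot be told apart in these groups.

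The summed level of the 38 genes was 462 ± 3.89 FPKM in wild-type control (SD, n = 3) and 2055 ± 33.6 in Nlrp3-/- control libraries. With LPS+ATP it was 675 ± 11.6 in wild-type and 2061 ± 59.6 in Nlrp3-/- libraries. The genes held 0.155%, 0.693%, 0.234% and 0.726% of all FPKM in wild-type control, Nlrp3-/- control, wild-type LPS+ATP and Nlrp3-/- LPS+ATP libraries. The sum was thus several times higher in Nlrp3-/- BMDMs in both states. In wild-type BMDMs every LPS+ATP library lay above the controls, whereas in Nlrp3-/- BMDMs the groups overlapped. In bulk RNA, fewer cells of a type and less RNA per cell cannot be told apart.

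**Figure D1:**
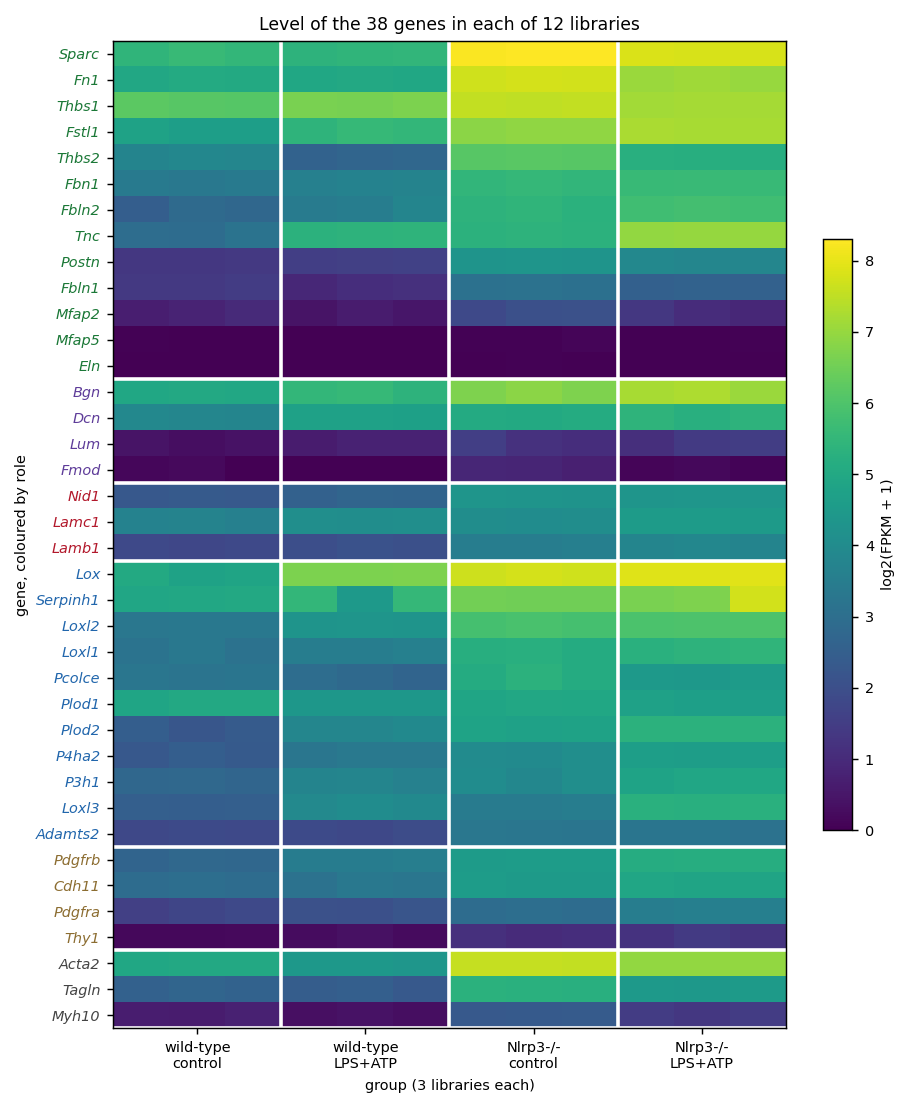
Level of each of the 38 genes, as log2(FPKM + 1), in each of the 12 libraries, with genes ordered by role and then by their mean in Nlrp3-/- control libraries. Most rows are brighter in the 6 Nlrp3-/- columns on the right, while Plod1 and Lamc1 differ little and Eln and Mfap5 are near 0 throughout.

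Of the 38 genes, 35 had 1 FPKM or more in 3 or more libraries and were fitted with limma on log2(FPKM + 1) together with all 12622 such genes. The criteria were an adjusted p (Benjamini-Hochberg) under 0.05 together with a log2 fold change of 1 or more in size. Between the control groups, 30 of the 35 were past the criteria as higher in Nlrp3-/- and 0 as lower, against 6.02% of all tested genes higher and 0.689% lower. With LPS+ATP, 29 were higher and 0 lower, against 4.48% and 0.57% of all tested genes. Since the list was chosen on this contrast, nothing is read from these counts. Of the 35, 27 were past the criteria in both states. The median log2 fold change between genotypes was 1.76 in control and 1.62 with LPS+ATP, beside 0.09 and 0.11 over all tested genes. Of the 35 genes, 4 (Mfap2, Lum, Thy1 and Myh10) passed the filter only through Nlrp3-/- libraries and so had to be higher there. The other 31 passed in the wild-type libraries alone, and 28 of these were past the criteria in control and 27 with LPS+ATP.

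Just inside the limit of 1 were Thy1 with LPS+ATP at 1.00 and Myh10 with LPS+ATP at 1.07, and in control libraries Mfap2 at 1.12. Just outside were Loxl3 at 0.98, Thy1 at 0.91 and Lum at 0.90 in control libraries. Thy1 with LPS+ATP fell under the limit without Nlrp3-/- LPS+ATP replicate 2 (0.94), wild-type LPS+ATP replicate 1 (0.99) or wild-type LPS+ATP replicate 3 (0.97).

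Among the glycoproteins and fibril components, Postn had the widest genotype ratio of the 35 genes. Postn encodes periostin, a secreted protein that binds collagen and integrins. It was at 1.56, 1.55 and 1.62 FPKM in wild-type control libraries, 1.89, 1.99 and 2.06 in wild-type LPS+ATP libraries, 18.7, 19.1 and 18.9 in Nlrp3-/- control libraries and 13.5, 12.9 and 13.2 in Nlrp3-/- LPS+ATP libraries. The ratio of mean FPKM, Nlrp3-/- over wild-type, was 11.98 in control and 6.68 with LPS+ATP. No wild-type library came near the Nlrp3-/- libraries.

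Fn1, which encodes the cell-adhesive glycoprotein fibronectin, was at 30.6, 32.7 and 31.7 FPKM in wild-type control and 29.8, 31.1 and 29.98 in wild-type LPS+ATP libraries. In Nlrp3-/- BMDMs it was at 208, 219 and 211 in control and 132, 139 and 129.8 in LPS+ATP libraries. The wild-type groups overlapped and the Nlrp3-/- groups did not. Sparc, which encodes a collagen-binding protein of bone and remodelling tissue, had the highest level of the 38 genes in Nlrp3-/- control libraries, at 308, 315 and 312 FPKM. It was at 226, 223 and 222 with LPS+ATP, beside 42.1, 47.2 and 44.7 in wild-type control and 40.5, 42.03 and 43.04 in wild-type LPS+ATP libraries. Both genes were thus higher in every Nlrp3-/- library than in any wild-type library.

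Fbn1, which encodes the microfibril protein fibrillin-1, was at 9.38 ± 0.240 FPKM in wild-type and 44.04 ± 1.14 in Nlrp3-/- control libraries (mean ± SD, n = 3), and at 11.8 ± 0.446 and 47.996 ± 0.243 with LPS+ATP. Of its exon bases in GENCODE M21, 20.1% overlap Gm9913 on the opposite strand, which was at most 0.449 FPKM in any library. Whether counting used strand is not given in the sources used here, so reads of such partners cannot be told apart. The fibulins Fbln1 and Fbln2, which bind elastic fibres and basement membranes, had genotype ratios of 4.56 and 7.24 in control and 4.61 and 4.88 with LPS+ATP. Fstl1, a secreted glycoprotein of the Sparc family, had ratios of 4.73 and 3.39. Mfap2, a component of microfibrils, was at most 0.987 FPKM in wild-type libraries and reached 3.14 in Nlrp3-/- control libraries. Its relative Mfap5 and the elastic fibre protein elastin (Eln) did not pass the filter, being at most 0.0922 and 0.0362 FPKM in any library.

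The thrombospondins and tenascin-C are matricellular proteins, which modulate the contact of cells with matrix. Thbs1 was abundant in wild-type BMDMs too, at 72.9, 70.1 and 68.2 FPKM in control and 97.8, 96.4 and 101 in LPS+ATP libraries, beside 184, 183 and 184 and 142, 145 and 144 in Nlrp3-/- control and LPS+ATP libraries. Its genotype ratio was 2.61 in control and 1.46 with LPS+ATP, the third lowest of the 35 genes with LPS+ATP. Thbs2 was at 12.6, 13.4 and 12.9 and 5.16, 5.56 and 5.90 FPKM in wild-type control and LPS+ATP libraries and at 69.5, 70.95 and 69.5 and 36.4, 35.7 and 35.1 in those of Nlrp3-/- BMDMs. Tnc was at 6.88, 6.63 and 7.87 FPKM in wild-type control, 39.3, 40.7 and 40.9 in wild-type LPS+ATP, 39.1, 40.1 and 39.3 in Nlrp3-/- control and 124, 126 and 127 in Nlrp3-/- LPS+ATP libraries. The wild-type LPS+ATP and Nlrp3-/- control values of Tnc were side by side.

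Of the small leucine-rich proteoglycans, biglycan (Bgn) and decorin (Dcn) were the abundant ones. Bgn was at 30.2, 31.2 and 30.9 FPKM in wild-type control and 103, 115 and 103 in Nlrp3-/- control libraries, a ratio of 3.48, and its ratio with LPS+ATP was 3.30. Dcn was at 13.7, 13.04 and 12.7 and 25.9, 25.97 and 25.3 FPKM in wild-type control and LPS+ATP libraries, and at 33.02, 32.3 and 33.7 and 41.4, 36.5 and 40.04 in Nlrp3-/- control and LPS+ATP libraries. Its ratio narrowed from 2.52 to 1.53. Lumican (Lum) was at most 0.744 FPKM in wild-type and between 1.14 and 1.94 in Nlrp3-/- libraries. Fibromodulin (Fmod) did not pass the filter, with 0.644 to 0.843 FPKM in Nlrp3-/- control libraries and at most 0.146 elsewhere. The proteoglycans that sit on collagen fibrils were thus present at very unequal levels.

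The basement membrane genes were higher in Nlrp3-/- BMDMs by unequal ratios. Nid1, which encodes the linker protein nidogen, had genotype ratios of 4.70 and 3.67 in control and LPS+ATP libraries, and the laminin chain gene Lamb1 had 4.28 and 4.14. Lamc1, which encodes a chain of most laminins, was at 11.97, 12.1 and 11.4 FPKM in wild-type control and 15.7, 15.4 and 15.7 in Nlrp3-/- control libraries. Its ratios were 1.32 and 1.39. Lamc1 was higher in every Nlrp3-/- library than in the wild-type libraries of the same state, but by far less than Nid1 or Lamb1.

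In the group of collagen processing and crosslinking, the lysyl oxidases start the crosslinks between collagen chains. Lox was at 32.002, 26.8 and 28.02 FPKM in wild-type control, 101, 99.6 and 104 in wild-type LPS+ATP, 204, 219.8 and 206 in Nlrp3-/- control and 239, 240.3 and 245 in Nlrp3-/- LPS+ATP libraries. The ratio between genotypes was 7.25 in control and 2.38 with LPS+ATP. The 4 groups of Lox did not overlap. Loxl1 had ratios of 4.32 and 3.72, and Loxl3 had 2.19 and 2.56. Loxl3 shares 11.6% of its exon bases with Htra2 on the opposite strand, which was between 10.5 and 13.2 FPKM in every library.

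Loxl2 was at 8.80, 9.11 and 9.11 FPKM in wild-type control, 18.8, 19.3 and 18.9 in wild-type LPS+ATP, 57.5, 59.2 and 56.3 in Nlrp3-/- control and 61.5, 62.6 and 62.8 in Nlrp3-/- LPS+ATP libraries. Its value is uncertain, since the gene model Gm21451 matched 44.2% of its longest transcript at 100% identity. Gm21451 was at 0 in all wild-type libraries, between 39.5 and 39.9 FPKM in Nlrp3-/- control libraries and at most 0.0859 in Nlrp3-/- LPS+ATP libraries. The antisense gene Gm27177, which covers 5.57% of the exon bases of Loxl2, was at most 0.0506 FPKM in wild-type libraries, 1.53 to 1.78 in Nlrp3-/- control and 9.27 to 9.67 in Nlrp3-/- LPS+ATP libraries. How reads were shared among these genes was not tested.

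The lysyl hydroxylases did not move alike between genotypes. Plod2, which hydroxylates lysines of the collagen telopeptides, was at 4.63, 3.65 and 4.19 FPKM in wild-type control and 27.4, 25.9 and 26.8 in Nlrp3-/- control libraries. With LPS+ATP it was at 13.1, 13.03 and 14.3 and 39.6, 39.2 and 39.3. Plod1, which acts on the helical part, was at 28.8, 31.4 and 31.5 FPKM in wild-type control and 28.7, 30.5 and 29.7 in Nlrp3-/- control libraries, which overlapped, and at 19.9, 20.2 and 20.003 and 25.7, 25.05 and 24.5 with LPS+ATP. Plod1 had the lowest ratio of the 35 genes in both states, 0.969 and 1.25. The prolyl hydroxylase genes P4ha2 and P3h1 had ratios of 3.61 and 2.60 in control and 2.65 and 2.35 with LPS+ATP. Pcolce, which enhances the trimming of procollagen ends, had 4.25 and 3.53, and the procollagen protease Adamts2 had 3.30 and 3.10.

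Serpinh1, the collagen-specific chaperone of the endoplasmic reticulum, was at 29.4, 30.5 and 31.4 FPKM in wild-type control and 91.9, 89.998 and 90.4 in Nlrp3-/- control libraries. With LPS+ATP its libraries were far apart, at 43.98, 21.7 and 44.9 in wild-type and 97.3, 102 and 214 in Nlrp3-/- BMDMs. Wild-type replicate 2 and Nlrp3-/- replicate 3 stood apart from the other libraries of their groups. Its ratio with LPS+ATP, 3.74, rests on those libraries.

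Of the mesenchymal receptors and adhesion molecules, Pdgfra and Pdgfrb encode the receptors of platelet-derived growth factors. Pdgfra was at 1.99, 2.32 and 2.58 FPKM in wild-type control, 3.17, 3.05 and 3.57 in wild-type LPS+ATP, 6.71, 7.05 and 6.73 in Nlrp3-/- control and 10.5, 10.98 and 10.97 in Nlrp3-/- LPS+ATP libraries. Pdgfrb, at 5.76 ± 0.283 FPKM in wild-type and 23.1 ± 0.319 in Nlrp3-/- control libraries (mean ± SD, n = 3), had genotype ratios of 4.01 and 3.36. The receptors were therefore higher in Nlrp3-/- BMDMs in both states. Cdh11, a cadherin of mesenchymal cells, had ratios of 3.29 and 3.32. Thy1, a surface glycoprotein of fibroblasts and of T cells, was at most 0.285 FPKM in wild-type and between 1.04 and 1.64 in Nlrp3-/- libraries, with ratios of 8.29 and 6.51.

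The contractile genes had some of the widest genotype ratios. Acta2, which encodes the smooth muscle actin of myofibroblasts, was at 29.7, 31.5 and 31.2 FPKM in wild-type control and 189, 189 and 186 in Nlrp3-/- control libraries. With LPS+ATP it was at 20.7, 20.3 and 19.6 and 124, 124 and 123. The ratio was 6.11 in control and 6.12 with LPS+ATP, and so hardly moved. The actin-binding gene Tagln had ratios of 7.21 and 4.77, and Myh10, which encodes a non-muscle myosin heavy chain, had 6.66 and 6.08. In GENCODE M21, 62.4% of the exon bases of Tagln are overlapped by the antisense gene Gm48529, so its value is uncertain.

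**Figure D2:**
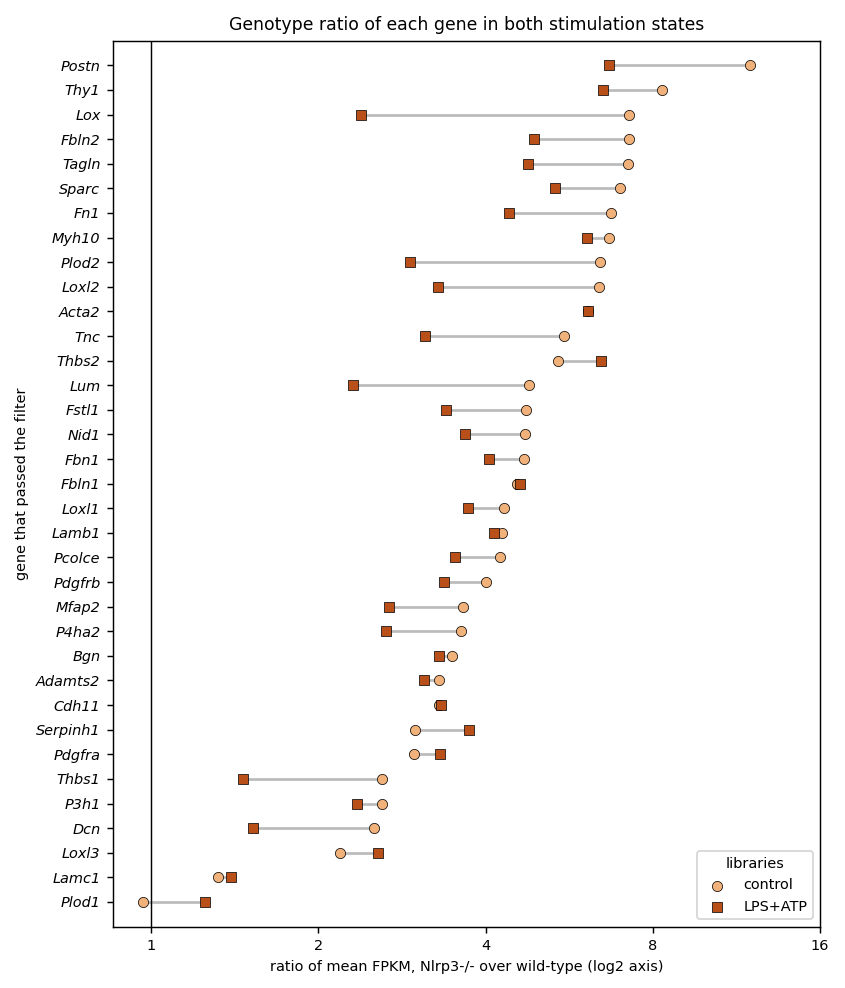
Ratio of mean FPKM, Nlrp3-/- over wild-type, on a log2 axis for each of the 35 genes that passed the filter, in control libraries (circles) and with LPS+ATP (squares), 3 libraries per mean. The ratios run from 0.969 for Plod1 to 11.98 for Postn in control and from 1.25 to 6.68 with LPS+ATP, and the square lies left of the circle for 26 genes.

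The direction between genotypes follows from the choice of the genes, so the spread of the sizes is given here as a description. The ratio of mean FPKM between control groups was above 1 in 34 of 35 genes, with a median of 4.56, quartiles of 3.3 and 6.41, and a range from 0.969 (Plod1) to 11.98 (Postn). With LPS+ATP it was above 1 in all 35, with a median of 3.36, quartiles of 2.67 and 4.5, and a range from 1.25 (Plod1) to 6.68 (Postn). The SD of the log2 ratios over genes was 0.74 in control and 0.63 with LPS+ATP. Over all tested genes above 0 in every library it was 0.73 and 0.66 around medians of 0.11 and 0.14. Around its median, the list was thus about as wide as the whole table by SD. By quartiles it was wider, since those of the whole table were 0.93 and 1.29 in control and 0.95 and 1.37 with LPS+ATP. The listed genes did not share 1 ratio in either state. What this means for a share of stromal cells was not tested. Over the 31 genes that passed the filter in wild-type libraries alone, the median ratio was 4.32 in control, with quartiles of 3.13 and 6.25, and 3.36 with LPS+ATP, with quartiles of 2.78 and 4.27.

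The control and LPS+ATP ratios come from separate libraries. Across the 35 genes, Pearson's r between the log2 ratios was 0.791 and Spearman's rho 0.668, as a description, since genes are not independent replicates and the genes share the libraries. The 17 tested collagens, which belong to the same matrix, had 0.893 and 0.735, and the 12375 tested genes above 0 in every library had 0.688 and 0.564. The ratio was lower with LPS+ATP than in control for 26 of the 35 genes and higher for 9, beside 45.1% of all those genes for which it was lower. The largest drops were those of Lox, Plod2 and Lum, while Thbs2, Loxl3, Plod1, Serpinh1, Pdgfra and Lamc1 were among those with a higher ratio.

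Next, LPS+ATP was compared with control within each genotype. These contrasts are not known to have been used to choose the genes, but they share libraries with those that were. The genes were also chosen with earlier results of these libraries known. In wild-type BMDMs, 4 of the 35 genes rose and 1 fell, against 8.25% of all tested genes higher and 11.2% lower. Of the list, 14.3% of the genes were thus called in either direction, beside 19.4% of all tested genes. The median log2 fold change of the 35 was 0.33, beside -0.25 over all tested genes, and 25 were above 0.

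Tnc rose most, by 2.35 ± 0.049 (log2 fold change ± SE, limma, adjusted p = 3.3e-12). Lox rose by 1.78 ± 0.055 (limma, adjusted p = 9.3e-11). Plod2 rose by 1.49 ± 0.063 and Loxl3 by 1.46 ± 0.044 (limma, adjusted p = 1.4e-09 and 6.6e-11). Lox, Loxl3 and Plod2 all act on the lysines of collagen, and Tnc is a glycoprotein of injured tissue. Thbs2 fell by 1.09 ± 0.043 (limma, adjusted p = 7.5e-10). The fall of Thbs2 was under the fold limit with median-ratio scaling (-0.81) and with upper-quartile scaling (-0.94). These scalings moved the median of all tested genes by 0.25 and 0.13, and 11 and 9 of the 35 genes then rose, with 0 falling.

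Loxl2, P3h1, P4ha2 and Dcn were just under the fold limit in wild-type BMDMs, at 0.999, 0.964, 0.949 and 0.921 on the log2 scale. Loxl2 crossed the limit without wild-type control replicate 2 (1.01) or 3 (1.01) and without wild-type LPS+ATP replicate 1 (1.01) or 3 (1.00), and P3h1 without wild-type LPS+ATP replicate 3 (1.01). The other genes of the list had smaller changes. Fn1, Sparc, Adamts2, Thy1 and Serpinh1 had an adjusted p of 0.05 or more in limma, with fold changes between -0.09 and 0.20.

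In Nlrp3-/- BMDMs, 2 of the 35 genes rose with LPS+ATP and 0 fell, against 6.64% and 8.21% of all tested genes. Loxl3 rose by 1.78 ± 0.044 and Tnc by 1.64 ± 0.049 (limma, adjusted p = 1.7e-11 and 9.2e-11). Both had also risen in wild-type BMDMs. The median of the 35 was 0.17, beside -0.24 over all tested genes, and 22 were above 0. Thbs2 had -0.95 and Myh10 -0.93, just under the fold limit. The contractile genes had negative fold changes in both genotypes, from -0.93 to -0.60 in Nlrp3-/- and from -0.58 to -0.20 in wild-type BMDMs, with 0 of 3 called. Myh10 was under 1 FPKM in wild-type libraries, where log2(FPKM + 1) shrinks a fold change. Its log2 ratio of mean FPKM was -1.16 in wild-type and -1.29 in Nlrp3-/- BMDMs. The 4 receptor and adhesion genes and the 3 basement membrane genes had positive fold changes in both genotypes, at most 0.75, with 0 of these genes called.

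**Figure D3:**
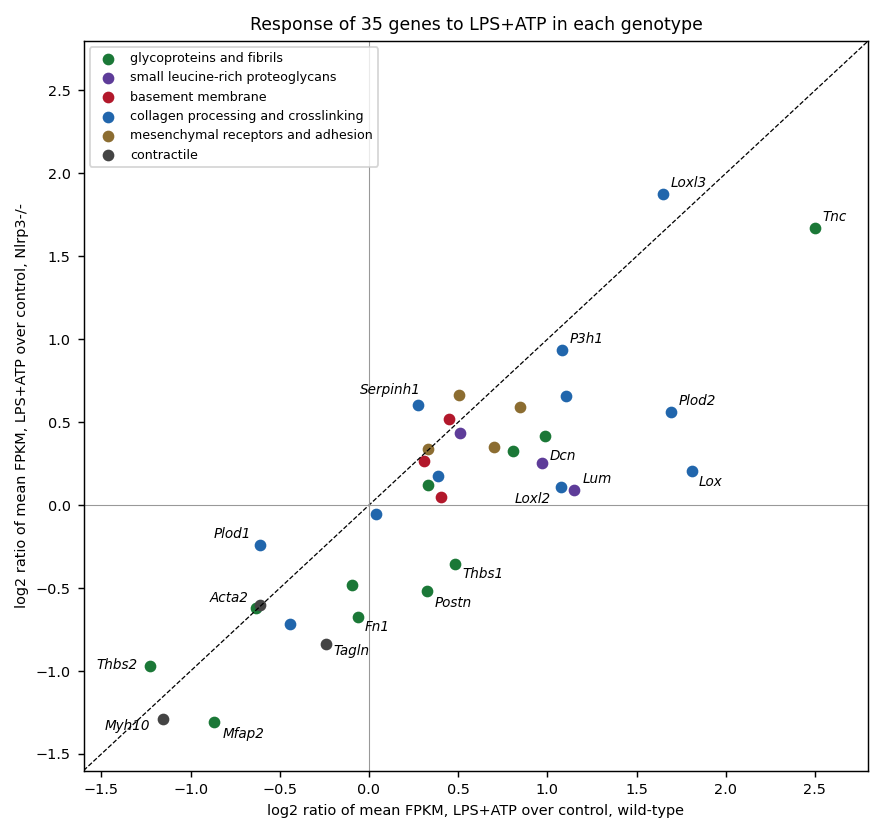
Log2 ratio of mean FPKM, LPS+ATP over control, in wild-type (horizontal) against Nlrp3-/- BMDMs (vertical) for the 35 genes, coloured by role, with the dashed line of equal ratios. Tnc and Loxl3 lie at the upper right, Thbs2 and Myh10 at the lower left, and 26 of 35 points lie under the line, Lox the farthest.

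The responses in the genotypes come from separate libraries. Across the 35 genes, Pearson's r between the log2 ratios in wild-type and in Nlrp3-/- BMDMs was 0.844 and Spearman's rho 0.772, beside 0.953 and 0.973 over the 17 collagens and 0.914 and 0.879 over all 12375 genes. The log2 ratios of the 35 ran from that of Thbs2 (ratio 0.428) to that of Tnc (5.65) in wild-type BMDMs. In Nlrp3-/- BMDMs they ran from Mfap2 (0.404) to Loxl3 (3.67). Within each genotype, the ratios under LPS+ATP thus lay on both sides of 1.

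The difference between the responses was tested as an interaction, in which a negative value means a smaller rise or a larger fall in Nlrp3-/- BMDMs. Lox alone of the 35 genes was called, at -1.57 ± 0.078 (limma, adjusted p = 2.1e-07), which is 1 gene lower and 0 higher, against 1.43% and 0.721% of all tested genes. Lox went from 28.9 ± 2.72 to 101 ± 2.09 FPKM in wild-type and from 209.9 ± 8.60 to 242 ± 3.13 in Nlrp3-/- BMDMs (mean ± SD, n = 3). Plod2 had -0.95 ± 0.089, under the fold limit, and crossed it without wild-type control replicate 1 (-1.01). Loxl2 had -0.89 ± 0.043, with the limit on its reads given above. The interaction was negative for 26 of the 35 genes, with a median of -0.29, beside a median of 0.02 over all tested genes. It equals the genotype fold change with LPS+ATP minus that in control, and the genes were chosen on genotype differences. The counts of 26 genes with a lower genotype ratio and of 26 points under the line are the same comparison. Nothing is therefore read from this shift of the list. The adjusted p of a single gene, that of Lox included, makes no allowance for this choice. Interactions of the listed genes are thus given as a description.

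Thbs1 and Postn went opposite ways in the genotypes, with no overlap between control and LPS+ATP libraries, though by less than the fold limit. Thbs1 went from 70.4 ± 2.40 to 98.3 ± 2.16 FPKM in wild-type and from 183 ± 0.306 to 144 ± 1.52 in Nlrp3-/- BMDMs (mean ± SD, n = 3). Postn went from 1.58 ± 0.0375 to 1.98 ± 0.0868 FPKM in wild-type and from 18.9 ± 0.220 to 13.2 ± 0.311 in Nlrp3-/- BMDMs. The interaction was -0.83 ± 0.041 for Thbs1 and -0.69 ± 0.055 for Postn (limma, adjusted p = 2.1e-07 and 6.2e-06), again as a description. For Acta2 the interaction was -0.02 ± 0.043 (limma, adjusted p = 0.83), the closest to 0 of the contractile genes.

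**Figure D4:**
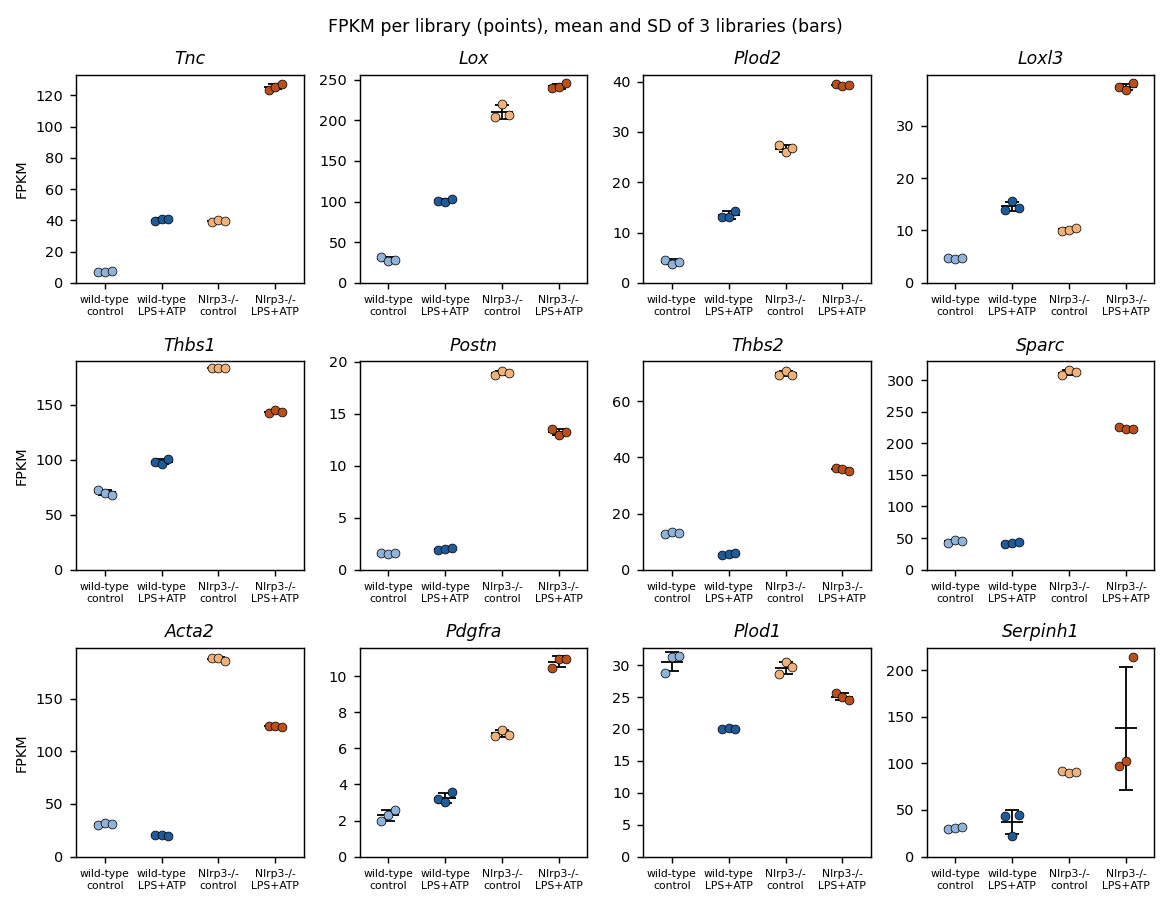
FPKM per library of 12 of the genes in the 4 groups, with points for libraries and bars for the mean and SD of 3 libraries. Tnc, Lox, Plod2 and Loxl3 are higher with LPS+ATP in both genotypes, Thbs1 and Postn go opposite ways, Thbs2 and Acta2 are lower with LPS+ATP in both, Plod1 overlaps between the control groups, and Serpinh1 is spread widely with LPS+ATP.

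Within groups, no library carried the list up or down as a whole. The median deviation of the 35 genes from their group means lay between -0.04 and 0.02 on the log2 scale in every library. The number of genes at their group's highest value was 8, 16 and 11 in the wild-type control replicates 1, 2 and 3, and 3, 17 and 15 with LPS+ATP. In Nlrp3-/- BMDMs it was 8, 17 and 10 in control and 13, 10 and 12 with LPS+ATP. The median coefficient of variation over the 35 genes was 4.26% and 5.24% in the wild-type groups and 2.74% and 2.35% in the Nlrp3-/- groups. The largest deviations were those of Serpinh1, -0.69 in wild-type LPS+ATP replicate 2 and 0.74 in Nlrp3-/- LPS+ATP replicate 3.

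**Figure D5:**
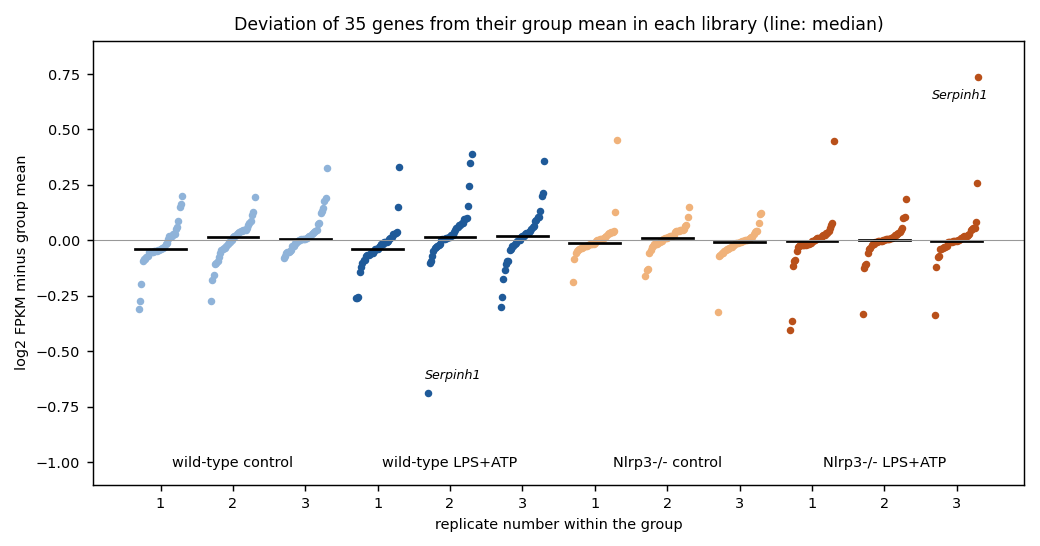
Deviation of log2 FPKM from the group mean for each of the 35 genes in each of the 12 libraries, sorted within a library, with the median as a line. The medians lie between -0.04 and 0.02 in every library, and Serpinh1 is farthest out, at -0.69 and 0.74.

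Marker lists of cell types were set beside these values. The 10 macrophage markers summed to between 19265 and 21357 FPKM in control libraries and between 11250 and 11913 with LPS+ATP, with Lyz2 the highest. The Nlrp3-/- sum over the wild-type sum was 0.93 in control and 0.956 with LPS+ATP, but Lyz2 made up most of it, with ratios of 0.958 and 0.983. The other macrophage markers went both ways. In control, the ratios were 0.604 for Cd68, 0.65 for Csf1r, 0.657 for Mrc1, 0.751 for Fcgr1, 0.777 for Adgre1, 0.865 for Cd14 and 0.916 for Itgam, and 1.05 for Mertk and 1.52 for C1qa. With LPS+ATP they ran from 0.608 for Fcgr1 to 1.48 for C1qa. All 10 markers were above 1 FPKM in every group. The 12 fibroblast markers summed to between 190 and 196 FPKM in wild-type control and between 1197 and 1217 in Nlrp3-/- control libraries. They summed to between 662 and 688 in wild-type LPS+ATP and between 1177 and 1203 in Nlrp3-/- LPS+ATP libraries. Pdpn, which activated macrophages also make, was 518 of this sum on average in wild-type LPS+ATP libraries. Without Pdpn, which was left out after its values were seen, the 11 others summed to between 149.5 and 154 in wild-type control and 159.7 and 162 in wild-type LPS+ATP libraries. In Nlrp3-/- libraries they summed to between 1154 and 1172 in control and 861 and 879.7 with LPS+ATP. Of the 11, Col1a1 was the highest, at 71.2 FPKM in wild-type and 652 in Nlrp3-/- control libraries. Clec3b was at 0 in every wild-type LPS+ATP library.

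The fibroblast markers did not all move alike. In control, the Nlrp3-/- over wild-type ratio was above 1 for all 12, from 1.06 for Pdpn to 9.16 for Col1a1 among the markers above 1 FPKM in both groups. With LPS+ATP it was below 1 for Pdpn (0.617), Cd34 (0.902), Pi16 (0.559) and Dpt (0.524), of which Pi16 and Dpt were near 0. The sum without Pdpn was mostly Col1a1, Col1a2 and Col3a1, with ratios of 6.21, 4.92 and 4.55 with LPS+ATP. Under LPS+ATP in Nlrp3-/- BMDMs, the sum of all 12 markers overlapped the controls (ratio 0.986), and a lower sum came with the removal of Pdpn. The 8 marrow stromal markers summed to between 17.3 and 19.5 FPKM in wild-type control and 62.4 and 66.9 in Nlrp3-/- control libraries, and to between 16.4 and 20.7 and between 42.1 and 43.7 with LPS+ATP. The 7 markers of smooth muscle cells and pericytes summed to at most 2.34 FPKM in wild-type and 8.95 in Nlrp3-/- libraries, with Cnn1 at 0 in every wild-type LPS+ATP library. The 7 osteoblast markers summed to at most 6.75 in wild-type and 20.2 in Nlrp3-/- libraries, with Bglap and Bglap2 at 0 in every wild-type library. The 7 endothelial markers summed to at most 7.09 and 15.9 FPKM. The part of any of these cell types in the levels of the listed genes was not tested.

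Markers of other blood cells differed as well. The 8 neutrophil markers summed to between 242 and 275 FPKM in wild-type control and 1421 and 1469 in Nlrp3-/- control libraries, and to between 91.7 and 107.6 and between 417 and 445 with LPS+ATP, with S100a9 the highest. The 6 megakaryocyte or platelet markers summed to between 239 and 246 FPKM in wild-type control and between 393 and 412 in Nlrp3-/- control libraries, with Pf4 the highest. With LPS+ATP the order turned, with 303 to 309 FPKM in wild-type and 285 to 295 in Nlrp3-/- libraries, and Ppbp, Gp9 and Itga2b had genotype ratios of 0.412, 0.531 and 0.556. The markers of lymphocytes, erythroid cells and adipocytes summed to at most 4.39, 7.72 and 0.261 FPKM in any library, with the adipocyte markers Cidec and Lep at 0 throughout. The Nlrp3-/- sum over the wild-type sum was 5.60 in control and 4.32 with LPS+ATP for neutrophil markers. It was 6.17 and 1.94 for lymphocyte and 20.9 and 4.51 for erythroid markers, whose wild-type sums were at most 0.792 and 0.795 FPKM. A higher level in Nlrp3-/- BMDMs was thus also seen in markers of neutrophils and, near the floor, of lymphocytes and erythroid cells.

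Other genes of the same pathways were taken from hand-written lists that hold none of the 38. Between genotypes most genes of these lists were higher in Nlrp3-/- BMDMs. Since the lists overlap in function with genes chosen on this contrast, their counts are a description. Over all tested genes, 6.02% were past the criteria as higher in Nlrp3-/- control and 4.48% with LPS+ATP. Of 34 tested matrix glycoproteins, 19 were past the criteria as higher in Nlrp3-/- control and 20 with LPS+ATP. Of 5 tested proteoglycans, these were 3 and 2, and of 20 tested genes of collagen processing 8 and 10. Of 19 tested mesenchymal and contractile genes, 14 and 12 were past the criteria, and of the 17 collagens 15 and 14. In no list was a gene past the criteria as lower, though some had negative fold changes. In control these were 2 glycoproteins, 1 mesenchymal or contractile gene and 0 genes of collagen processing. With LPS+ATP they were 1, 3 and 1. Vim, the most abundant of the mesenchymal list, had genotype ratios of 0.867 and 0.697, and Emilin2 had 0.835 and 0.627. Pdpn had 1.06 and 0.617, and Tgm2 had 1.03 and 0.599. Col1a1, the most abundant of the collagens, had ratios of 9.16 and 6.21, and Col1a2 had 7.29 and 4.92. Of the glycoproteins, Tgfbi had ratios of 1.6 and 1.35, Ecm1 1.67 and 2.13, and Igfbp7 3.77 and 3.17.

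Under LPS+ATP the pathway lists were mixed in direction. In wild-type BMDMs, 6 of the 34 tested glycoproteins rose and 4 fell, against 8.25% and 11.2% of all tested genes. In Nlrp3-/- BMDMs 6 rose and 7 fell, against 6.64% and 8.21%. The same shares of all tested genes stand beside the counts of the other lists. Tgfbi, a secreted adhesion protein, rose in both, by 1.58 and 1.34, as did the Ccn-family gene Cyr61 (1.54 and 1.32) and Agrn, which encodes the proteoglycan agrin (1.51 and 1.99). Igfbp4 fell by 2.84 and by 1.99. Of the proteoglycans, Vcan, which encodes versican, rose in wild-type BMDMs by 1.62, and its interaction of -1.58 was past the criteria, as that of Lox was. Ogn fell by 2.29 in wild-type and by 2.74 in Nlrp3-/- BMDMs. Hspg2, also among the abundant proteoglycans, had 0.10 and -0.09 and was not called. Its genotype ratios were 4.87 in control and 4.19 with LPS+ATP.

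Of the genes of collagen processing, P4ha1, Tgm2 and Adamts14 rose in wild-type BMDMs, by 1.63, 1.37 and 1.13, and Adamts14 rose in Nlrp3-/- BMDMs by 1.75, with 0 of 20 falling in either genotype. The most abundant, P4hb, had 0.14 and -0.30 and was not called. Of the 19 tested mesenchymal and contractile genes, 1 rose and 1 fell in wild-type and 1 rose and 5 fell in Nlrp3-/- BMDMs. Pdpn was the one that rose in both, by 3.61 and 2.83, and Myl9, which encodes a myosin light chain, fell in both by 1.70 and 1.65. Vim and Cnn2, the other abundant genes of that list, had -0.46 and -0.54 in wild-type and -0.77 and -0.74 in Nlrp3-/- BMDMs. Of the 17 tested collagens, 1 rose and 2 fell in wild-type and 1 rose and 3 fell in Nlrp3-/- BMDMs. Col5a3 was the one that rose, by 1.71 and 1.70. Of all these lists, the interaction was called for Fbn2, Ctgf, Vcan and Col11a1, each lower, at -1.47, -1.30, -1.58 and -1.22. Over all tested genes, 1.43% were called lower. Fbn2 and Col11a1 had means of at most 0.109 and 0.321 FPKM in wild-type groups, where log2(FPKM + 1) shrinks a fold change. The LPS+ATP over control ratio of Fbn2 was 0.0073 in wild-type and 0.0152 in Nlrp3-/- BMDMs. That of Col11a1 was 0.242 and 0.199. Nothing is therefore read from these 2 interactions.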

How the data were processed

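RNA of the 12 libraries was sequenced from TruSeq libraries. The authors deposited FPKM per gene and library. The submitters' processing notes name DESeq2 1.24.0 and GRCm39, while the aligner, annotation and strand setting are not given in the sources used here. FPKM keeps no read counts, so the precision rests on the 3 libraries per group. The 38 members, the pathway lists and the marker lists were chosen with earlier results of these data known. The genes named are the 38, the 3 most abundant genes of each pathway list, genes called against the direction of their list, the highest markers and those at 0, and the check genes. A few other called genes of the lists and the partner genes of Loxl2, Loxl3, Fbn1 and Tagln were named after their values were seen.

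The 12622 of 55335 genes that reached 1 FPKM in 3 or more libraries were fitted on log2(FPKM + 1), with a pseudocount of 1, in limma 3.58.1 (R 4.3.3), with 1 mean per group, a trend in the variance and Benjamini-Hochberg adjustment over all tested genes. Log2 fold changes on this scale understate those of low genes, and ratios are of mean FPKM. The contrasts were LPS+ATP in each genotype, genotype in each state and their interaction. The procedure was first tested on simulated data. Overlaps came from GENCODE M21, which holds 55154 of the identifiers, and near copies from blastn 2.17.0+ (20% or more of the longest transcript matched, with 95% identity). Python 3.11.15, numpy 2.4.6, pandas 2.3.3 and matplotlib 3.10.9 were used. Alternatives were other scalings (TPM, upper quartile, median ratio), a pseudocount of 0.1, other filters, no trend, no fold limit, the compared groups alone, a replicate block and leaving out each library. The counts over members that pass in wild-type libraries alone, and without 5 members of uncertain value, were added after seeing the data.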

Additional observations from a re-analysis of the deposited data

Results flagged for a closer look

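The response of Lox to LPS+ATP differed between genotypes by the criteria used for calls, with an interaction of -1.57 on the log2 scale and a larger rise in wild-type BMDMs. Interactions of the listed genes share values with the choice of these genes, so they are given as a description. Thbs1 had an interaction of -0.83 and Postn of -0.69, under the fold limit, and are named because every LPS+ATP library was above the controls in wild-type and below them in Nlrp3-/- BMDMs. Within each genotype, groups without overlap were common over all tested genes. Without overlap, 3020 of 12622 genes were higher and 6838 lower with LPS+ATP in wild-type BMDMs. In Nlrp3-/- BMDMs these were 2748 and 7023. By limma's adjusted p alone, with no fold limit, 20 of the 35 interactions passed, and those of Plod2 (-0.95) and Loxl2 (-0.89) were larger in size than those of Thbs1 and Postn. The share of all tested genes with no fold limit is not given here, so nothing is read from that count.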

How the results depend on the processing

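No called result changed direction under any alternative. Of the single gene values, 3734 kept their side of the criteria, 42 passed them newly and 9 no longer passed. The 5 genes called in wild-type BMDMs became 9 with TPM, 11 with median-ratio scaling, 9 with upper-quartile scaling, 8 with a pseudocount of 0.1 and 30 with no fold limit, and 5 to 7 when each library was left out. The 2 called in Nlrp3-/- BMDMs became 4 with TPM, 4 with a pseudocount of 0.1, 31 with no fold limit and, in a count added later, 1 without Loxl2, Tagln, Fbn1, Loxl3 and Serpinh1. The 1 called interaction became 2 with TPM, 2 with a pseudocount of 0.1 and 20 with no fold limit, and 1 to 2 when each library was left out, the 2 coming without wild-type control replicate 1. The shares of all tested genes with no fold limit are not given here, so nothing is read from those counts of the list. TPM gave 2 rises and 2 falls in Nlrp3-/- BMDMs. Over the 31 genes that passed in wild-type libraries alone, 5, 2 and 1 were called for LPS+ATP in wild-type, in Nlrp3-/- and the interaction. Without the 5 genes of uncertain value, 4 and 1 were called in wild-type and for the interaction.

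Median log2 ratios of mean FPKM over the 35 genes moved as follows. For LPS+ATP in wild-type BMDMs, 0.41 became 0.45 with TPM, 0.74 with median-ratio and 0.58 with upper-quartile scaling, and 0.38 to 0.46 when each library was left out. In Nlrp3-/- BMDMs, 0.18 became 0.24, 0.47 and 0.30, and 0.13 to 0.21. Between genotypes in control, 2.19 became 2.03 with median-ratio and 2.12 with upper-quartile scaling, and 2.13 to 2.22 when each library was left out. With LPS+ATP, 1.75 became 1.56 and 1.63.

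Replicate numbers did not pair the libraries: deviations of same-numbered libraries correlated between -0.06 and 0.05. With a replicate block, 5, 2 and 1 genes were called for LPS+ATP in wild-type, in Nlrp3-/- and the interaction, as without it. FPKM without read counts limits what can be said of genes near 0.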
